A study of Mus musculus with 6 samples.

Results

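Lowering Ncl with one small interfering RNA, Ncl siRNA #1, was set against a control siRNA in mouse embryonic stem cells, and the comparison is described here across all genes that the arrays could name. The cells were E14Tg2a, an established mouse embryonic stem cell line, transfected either with a duplex aimed at firefly luciferase, a gene that mouse cells lack, or with Ncl siRNA #1 (Invitrogen 17975-MSS206961), and RNA was taken at 96 h. Each of these groups held 2 Affymetrix arrays, so 4 of the 6 arrays of the series enter the comparison. The other 2 arrays carried RNA from cells given Ncl siRNA #2 (Invitrogen 17975-MSS275939), which served to estimate the spread and, in the last comparison, to ask where the duplexes differed. A gene was included when at least 1 probe set carried its symbol and no other, which held for 34958 of 45101 probe sets and gave 18194 genes, each read from the probe set with the highest mean signal. All values are log2 signals, differences are log2 differences, and a difference of 1 is a doubling of the signal. A gene is said to have risen or fallen when its limma p-value, adjusted over the 18194 genes by Benjamini-Hochberg, was under 0.05. Whether the arrays of a group stand for separate cultures is not stated, so a p-value reflects only how far these arrays lie apart, and that spread may be technical.

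Ncl encodes nucleolin, one of the most abundant proteins of the nucleolus, where ribosomal RNA is transcribed, processed and packed into ribosomal subunits. Nucleolin binds ribosomal RNA precursors and the chromatin of the ribosomal DNA repeats, and it is needed in large amounts in fast-dividing cells such as embryonic stem cells. Disturbed ribosome production is known to stabilise p53, because ribosomal proteins that are not built into ribosomes bind its ubiquitin ligase Mdm2. In embryonic stem cells nucleolin has also been placed, with the RNA of LINE1 elements, in the repression of the 2-cell programme, a set of genes that is active for a short time in the early embryo.

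The targeted transcript was lower with siRNA #1 on each of the 5 Ncl probe sets, by amounts that differed between them. On the brightest, the arrays read 14.21 and 14.21 with the control siRNA and 13.77 and 13.74 with siRNA #1, a fall of 0.46 (SE 0.04, n = 2 per group, limma adjusted p = 5.65e-09). The siRNA #1 arrays lay below both control arrays, as in 34.2% of all genes, and this probe set stood at 72.9% of control. The remaining probe sets stood at 48.0%, 37.2%, 62.9% and 40.5% of control, in falling order of their signal. The mean difference over the 5 was -0.98.

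**Figure D1:**
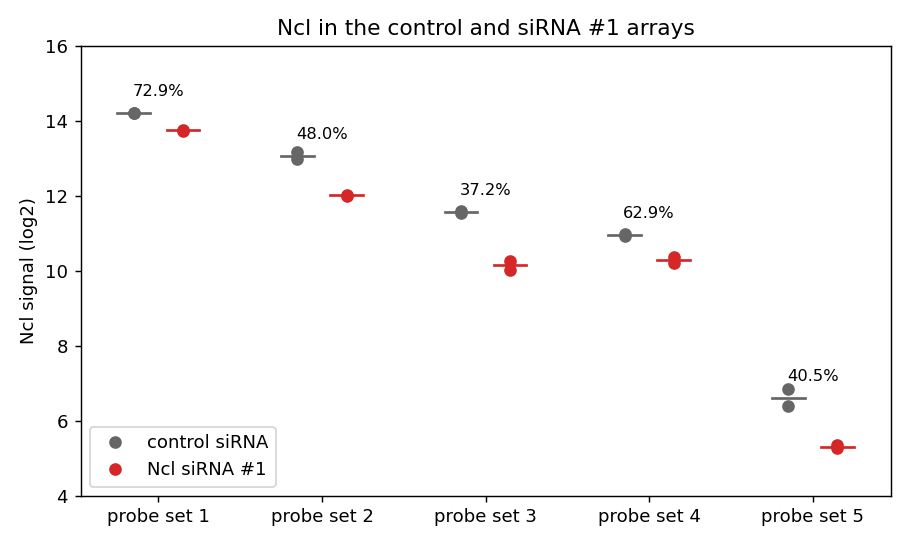
Ncl signal (log2, vertical axis) on each of the 5 Ncl probe sets in the control siRNA arrays (grey) and the siRNA #1 arrays (red). Points are single arrays, lines are means of 2 arrays and the percentages give the siRNA #1 mean relative to control on the linear scale, from 37.2% to 72.9%.

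The control arrays held a second difference that has to be read beside every result, namely transcripts of lung. Scgb1a1, the main secreted protein of airway club cells, had a log2 signal of 12.96 in each control array against 3.29 and 3.69 with siRNA #1, a difference of -9.47 (SE 0.16, limma adjusted p = 5.5e-21). Sftpc, surfactant protein C of alveolar type 2 cells, read 10.63 and 10.88 against 4.80 and 5.04. Lyz2, lysozyme of macrophages and type 2 cells, read 8.69 and 8.94 against 5.20 and 5.29, and Ager, a membrane receptor of alveolar type 1 cells, 8.85 and 8.88 against 5.45 and 6.24. The groups did not overlap in these 4 genes. Over all genes both siRNA #1 arrays lay below both control arrays in 34.2% and above them in 29.9%, so such a gap alone is common. Both siRNA #1 readings of Scgb1a1 were below the quartile values of 4.17 and 4.27 that bound the dimmest signals of their arrays, so its difference is a lower bound.

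The rest of the lung and blood markers were read as lists. Of 13 airway secretory genes 9 fell and 4 did not pass, with a median of -1.89, in a comparison in which 17.3% of all genes fell, 20.2% rose and the median gene stood at -0.05. The signals of those 13 genes, added on the linear scale and expressed as log2, came to 13.23 to 13.26 in the control arrays and 8.41 to 8.66 with siRNA #1. Alveolar type 2 markers had 9 of 13 that fell and 2 that rose (Abca3 and Etv5, 1 without either control array and without siRNA #1 replicate 1), and their summed level went from 13.22 to 13.29 in the control arrays to 12.88 to 12.96. That sum is set mostly by Etv5, a transcription factor that stem cells also make. Alveolar type 1 markers had 7 of 10 that fell and 1 that rose, endothelial markers 9 and 4 of 16, lung stroma 7 and 3 of 16 and leukocyte markers 7 and 4 of 24. Among those that rose were the endothelial adhesion molecule Pecam1 (1.72) and Eng (1.59) and, in the stroma list, Gpx3 (2.41), and the summed stroma level was 11.17 to 11.18 in the control arrays and 11.60 to 11.65 with siRNA #1. Ptprc, the CD45 antigen that defines leukocytes, stood at -0.32 and did not pass. Lyz1, whose siRNA #1 readings were below the lower quartile so that its difference of -5.78 is a lower bound, counted among the leukocyte genes but stood at 0.03 once the _x_at and _s_at probe sets, which may cross-hybridise, were dropped. Probe sets shared by the adult globin genes, which name no single gene, differed by -2.62 to -5.37. Globin probe sets that name 1 gene lay between -0.79 (Hbb-b2) and 0.03 (Hba-a1). Of 5 red blood cell genes with a probe set of their own 2 fell and 3 did not pass, with a median of -0.10. Heart muscle markers had 10 of 18 that fell, 1 that rose (Nppb, 2.62) and 7 that did not pass. Among those that fell was Myl7, an atrial myosin light chain (7.38 and 7.69 against 5.38 and 5.45).

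Markers of further organs and of feeder cells went both ways. Of 22 fibroblast and feeder cell genes 5 fell and 5 rose (2 rose without control replicate 1 or without siRNA #1 replicate 1), with a median of 0.05. Col3a1, a fibrillar collagen, stood at -2.74, and 3 of the 22 fell at least 2-fold. Lists for liver, brain, kidney and skeletal muscle, of 7 to 9 genes each, had 1 or 2 members that fell (4 for liver without siRNA #1 replicate 2), and the summed skeletal muscle level was 11.02 to 11.03 in the control arrays and 10.36 to 10.45 with siRNA #1. Among lung epithelial markers some rose, such as Pdpn, podoplanin, at 2.03 and Foxj1, a regulator of motile cilia, at 1.40. Fewer cells of a type and less RNA per cell cannot be told apart in RNA from whole cultures, and whether RNA of another tissue was mixed into the control samples was not tested. A fall against control is read with that limit. The added poly-A control RNAs were higher with siRNA #1 (means 7.51 and 8.55), hybridisation controls lower (11.42 and 10.55) and 18S ribosomal RNA probe sets higher (12.10 and 13.08). The part of these differences in the results that follow was not tested. When all genes of such marker lists were left out, 6715 of 18022 genes were called against 6811 of 18194 with them. So few genes were left out that this count could change little. It cannot show whether such RNA affected genes outside the lists.

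**Figure D2:**
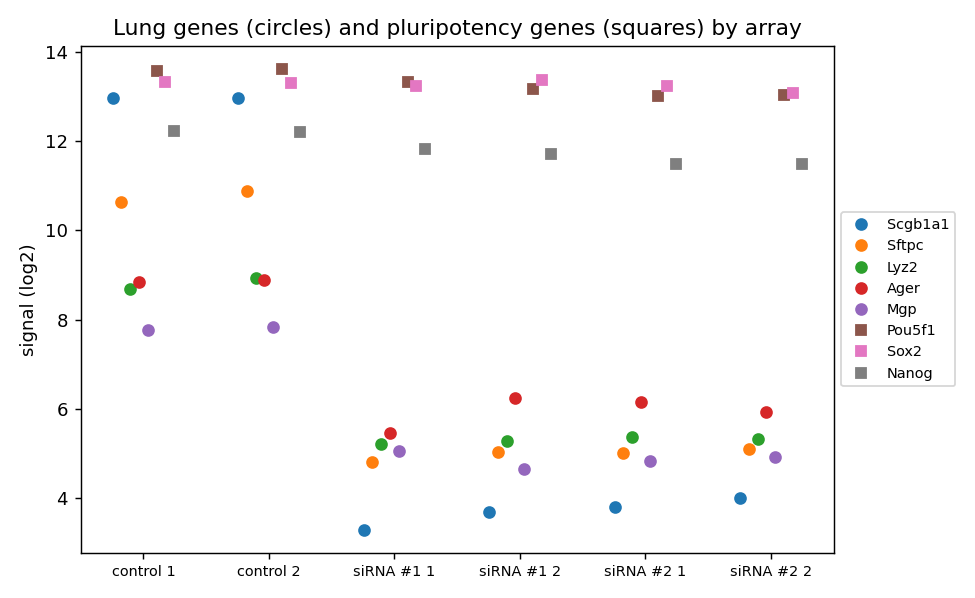
Log2 signal (vertical axis) of 5 genes typical of lung (circles) and 3 pluripotency genes (squares) in each of the 6 arrays. Scgb1a1, Sftpc, Lyz2, Ager and Mgp are high in both control arrays and low in the siRNA #1 and siRNA #2 arrays, while Pou5f1, Sox2 and Nanog stay at 11 or above in all 6.

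Across all genes, 3668 rose and 3143 fell with siRNA #1, and rises were larger than falls. A change of at least 2-fold was reached upwards by 856 genes and downwards by 232 (4.7% and 1.28% of those tested), at least 4-fold by 187 and 20, and at least 8-fold by 41 and 9. Thbs1, thrombospondin, a matrix protein that binds many cell surface receptors, read 5.35 and 5.44 in the control arrays and 9.67 and 9.48 with siRNA #1 (4.18, SE 0.11). Ccn1, a secreted matricellular protein, read 8.06 and 8.15 against 12.17 and 12.20, and all 4 of its probe sets rose by more than 4. Plin2, which coats lipid droplets, read 8.29 and 8.40 against 12.26 and 12.26 (3.92, SE 0.06). These 3 genes had the siRNA #1 arrays far above both control arrays, and 29.9% of all genes had them above by some amount.

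**Figure D3:**
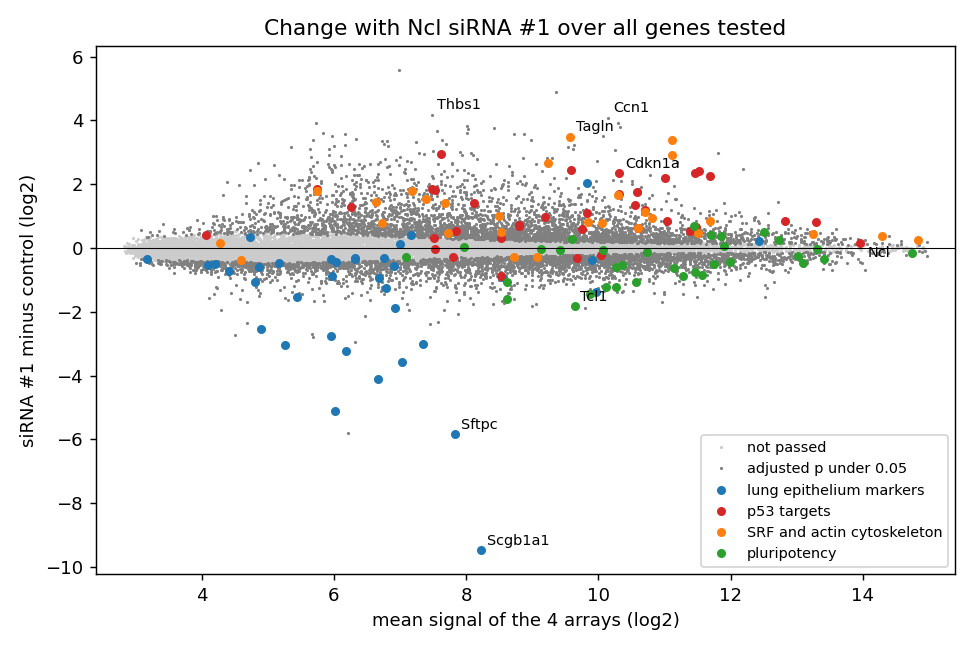
Difference between siRNA #1 and control (log2, vertical axis) against the mean signal of the 4 arrays (log2, horizontal axis) for 18194 genes. Dark grey marks an adjusted p under 0.05, blue marks lung epithelium markers, red p53 targets, orange genes of the SRF and actin list and green pluripotency genes. The lung genes form the downward tail, which ends with Scgb1a1 at -9.47.

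The other leading rises belonged to genes of varied function. Fgfbp1, a carrier that releases FGF ligands from the matrix, read 8.46 and 8.41 against 12.22 and 12.21, and Krt19, a keratin of simple epithelia, 6.62 and 6.46 against 10.43 and 10.21. Igf2, an imprinted fetal growth factor, read 8.30 and 8.31 against 11.84 and 11.79. Slc5a5, the iodide transporter, and Arg2, the mitochondrial arginase, differed by 3.67 and 3.52. Anxa3, a calcium-dependent membrane-binding protein, and Sct, the hormone secretin, differed by 3.57 and 3.56. Tmcc3, Nipal4, Ms4a10, Usp17la and Pramel18 completed the 15 highest named genes, after 3 genes known here only by sequence-record or Gm names were passed over. Nipal4 lost its call without _x_at and _s_at probe sets.

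Among genes that stayed well expressed with siRNA #1 (mean of at least 8) and that are in no list of other cell types, the deepest falls belonged partly to genes known from naive stem cells. Lrrc34, a leucine-rich repeat protein of pluripotent cells, read 10.69 and 10.77 in the control arrays and 8.98 and 8.72 with siRNA #1 (-1.88, SE 0.10). Tcl1, a co-activator of the kinase Akt, read 10.52 and 10.60 against 8.89 and 8.58, and Cbr3, a carbonyl reductase, 11.80 and 11.81 against 10.19 and 10.04. Ceacam1, a cell adhesion molecule, differed by -1.83. Jam2, a junctional adhesion molecule, and Trh, the precursor of thyrotropin-releasing hormone, differed by -1.44 and -1.41. Tubb2b, a tubulin, and Trim2, a ubiquitin ligase, differed by -1.45 and -1.37. In all of these 8 genes both siRNA #1 arrays lay below both control arrays, as in 34.2% of all genes. Genes picked for large changes, here and below, can be expected to show such a gap, so it adds no support. Malat1, a nuclear long noncoding RNA, fell by 1.55 on its brightest probe set, but its 7 probe sets ranged from -1.81 to 0.90 and only 4 were lower. Stmn3, Lgals3, Phlda2, Mymx, Fam25c and Rnf125 completed the 15, with 1 gene of a Rik name passed over.

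Targets of p53, the transcription factor that halts the cell cycle or starts apoptosis after damage, rose in most cases. Of 37 measured genes 31 rose, 3 fell and 3 did not pass, with a median of 0.86 against -0.05 over all genes, and 17 rose at least 2-fold. Cdkn1a, which encodes the cell cycle inhibitor p21, read 9.24 and 9.05 in the control arrays and 11.55 and 11.44 with siRNA #1 (2.35, SE 0.07, limma adjusted p = 1.1e-16). Mdm2, the ubiquitin ligase that degrades p53, read 10.57 and 10.54 against 12.79 and 12.83, although 1 of its 3 probe sets stood at -0.21. For both genes the groups were apart, with siRNA #1 above as in 29.9% of all genes. The pro-apoptotic gene Pmaip1 (Noxa) differed by 2.44, Ddit4, an inhibitor of mTORC1, by 2.43, Perp, a desmosome protein, by 2.34 and Cd80, a co-stimulatory ligand, by 2.94. Tigar, Sesn2 and Mdm4 fell, by 0.88, 0.31 and 0.23, but the count that fell was 1 without control replicate 2 or with variances that ignore the trend. Ccng2, Xpc and Ddb2 (0.31, -0.03 and -0.28) did not pass.

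The Bcl2 family, which sets the threshold of apoptosis at the mitochondrion, moved in both directions. Of 15 members 7 rose, 3 fell (5 with quantile normalization) and 5 did not pass, with a median of -0.03. Besides Pmaip1, the pro-apoptotic Bcl2l11 (Bim) differed by 0.92 and Bik by 0.97, and the protective Bcl2l1 (Bcl-xL) by 0.90, with 3 of its 4 probe sets higher. Bnip3, a mitochondrial protein also involved in mitophagy, read 10.99 and 11.07 against 9.74 and 9.66. Bmf fell by 1.38 on its brightest probe set and stood at 0.01 without _x_at and _s_at probe sets. Bcl2 itself (-0.03) did not pass.

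Regulators of the G1 phase moved in both directions. Of 22 genes 9 rose, 5 fell (3 without control replicate 2) and 8 did not pass, with a median of 0.08. Ccnd2, cyclin D2, read 8.42 and 8.32 against 10.81 and 10.71, with all 7 of its probe sets higher. Rb1, the retinoblastoma protein that restrains E2F factors, read 8.87 and 8.94 against 10.41 and 10.57, and the inhibitors Cdkn2b and Cdkn1c differed by 1.53 and 0.94. Rbl1, the related p107, stood at -0.71 and Cdkn1b, the inhibitor p27, at -0.55. The Rbl1 call was lost when all its probe sets were averaged.

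Genes of pluripotency fell more often than they rose, while its core factors stayed at high signals. Of 33 measured genes 19 fell, 6 rose (2 when the probe sets of a gene were averaged) and 8 did not pass, with a median of -0.35. Pou5f1 (Oct4), a core factor of the pluripotency network, read 13.56 and 13.61 in the control arrays and 13.32 and 13.16 with siRNA #1 (-0.35, SE 0.05, limma adjusted p = 7.09e-06). Nanog, another core factor, read 12.23 and 12.19 against 11.81 and 11.70 (-0.45, SE 0.05). Sox2 read 13.32 and 13.31 against 13.22 and 13.37 and did not pass, its groups overlapping. Regulators of the naive state moved further: Tfcp2l1 and Nr5a2 differed by -1.21 and -1.22, Prdm14 by -1.05, Klf2 by -0.75 and Esrrb by -0.59. The 3 Tfcp2l1 probe sets ranged from -1.21 to -0.17 with a median of -0.195, and 1 of the 3 Esrrb probe sets stood at 0.32. Fgf4, the growth factor that drives exit from the naive state, fell by 1.07. Those that rose were Fbxo15, Dppa2, Utf1, Klf5, Stat3 and Sall4, by 0.25 to 0.70.

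Genes of the primed epiblast, the state that follows naive pluripotency after implantation, rose in 13 of 21 cases, with a median of 0.44. The largest rise of this list was that of Krt18 (3.17), a keratin of simple epithelia named again with the trophectoderm genes. Fgf5, the classic marker of that state, read 4.58 and 4.17 in the control arrays and 7.54 and 7.41 with siRNA #1 (3.10, SE 0.17). Otx2, a factor that directs enhancers towards the primed state, read 9.56 and 9.57 against 10.73 and 10.74 (1.17, SE 0.07), and Pou3f1 (Oct6) 9.54 and 9.47 against 11.09 and 11.20. Sall2, Wnt8a and Cdh2 (N-cadherin) differed by 1.75, 1.67 and 1.61. All of these had both siRNA #1 arrays above both control arrays, as did 29.9% of all genes. Fgf15, Grhl2, Foxd3 and Dnmt3b fell, by 0.78, 0.35, 0.27 and 0.21, and the count that fell was 2 when probe sets were averaged.

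Genes of the 2-cell-like state, most of them from families repeated in the genome, rose in 12 of 15 measured cases, with a median of 1.03. The list held 35 genes, and 20 of them, among them the Zscan4 genes and Dux, had no probe set of their own and were not analysed here. Usp17la, a ubiquitin-specific protease, read 5.94 and 6.39 in the control arrays and 9.86 and 9.92 with siRNA #1 (3.72, SE 0.11), and Pramel18, of the Prame-like family, 4.48 and 4.29 against 7.96 and 7.97. Tcstv3 read 3.45 and 3.60 against 6.24 and 6.14, and Zfp352, a zinc finger gene, 5.65 and 5.49 against 7.56 and 7.43. Both Tcstv3 control readings were below the lower quartile, so its rise is a lower bound. Duxf3, Tdpoz1 and Eif1a (0.20, 0.26 and 0.01) did not pass. Probe sets of repeated families may read more than 1 gene, and among genes above the median signal only 7 members were tested, of which 6 rose.

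Germline genes, which are kept silent in most cells by DNA methylation, also rose in the majority, 18 of 27, with 1 that fell and a median of 0.70. Taf7l, which replaces a TFIID subunit in germ cells, read 5.31 and 5.40 against 8.01 and 7.95, and Tdrd7, a Tudor protein of germ granules, differed by 2.64. The dimmer Tdrd7 probe set stood at 0.33. Mael and Piwil2, which act in piRNA silencing, differed by 1.83 and 1.40, and Dazl and Ddx4, RNA-binding proteins of germ cells, by 1.71 and 1.40. Prdm1, a repressor that specifies primordial germ cells, fell by 0.75. Sycp3, of the synaptonemal complex, stood at 0.01, while Sycp1 and Sycp2 differed by 1.04 and 1.40. Without siRNA #1 replicate 1 the count that fell was 2.

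Trophectoderm, the outer epithelium of the blastocyst that forms the placenta, was represented by 31 genes, of which 20 rose, 2 fell (4 with quantile normalization) and 9 did not pass, with a median of 0.98. Among transcription factors, Gata3 read 5.08 and 4.34 in the control arrays and 7.51 and 7.11 with siRNA #1, Eomes 6.82 and 7.10 against 9.16 and 9.01, Cdx2 6.60 and 5.98 against 7.67 and 7.67, and Tfap2c 8.88 and 9.17 against 10.60 and 10.81. The groups were apart in each of these 4, with siRNA #1 above as in 29.9% of all genes. Tead4, Elf5 and Hand1 (0.13, -0.04 and 0.08) did not pass. The keratins of simple epithelia moved by the most, Krt19 by 3.78, Krt18 by 3.17 and Krt8 by 3.07, the last on all 3 of its probe sets. Lgals3, galectin 3, and Phlda2, an imprinted brake on placental growth, were the members that fell, with differences of -1.52 and -1.45.

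Genes of epithelial junctions split. Of 21 genes 13 rose and 5 fell (2 without control replicate 2 or with probe sets averaged), with a median of 0.24. Dsp, desmoplakin, which ties desmosomes to keratin filaments, read 7.45 and 7.45 against 10.24 and 10.32. The desmosomal cadherin Dsc2 differed by 1.80, though its dimmer probe set stood at -0.06. Cldn6, a claudin of tight junctions, differed by 1.53, whereas Cldn3 stood at -0.41. Cdh1, E-cadherin, stood at 0.15 and did not pass. Imprinted and placental genes, expressed from one parental copy, had 13 of 23 that rose and 2 that fell. After Igf2 the largest rises were Sgce (2.68) and Peg10 (1.95), which neighbour each other on the chromosome. Plagl1, a zinc finger gene of the same class, stood at 1.24 on its brightest probe set but at -0.05 without _x_at and _s_at probe sets.

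Genes driven by serum response factor (SRF), which builds the actin cytoskeleton together with the actin-sensing cofactors of the MRTF family, rose nearly throughout the list. SRF binds the CArG box, in which CC and GG enclose 6 bases that are each A or T. In the 250 bases upstream of the start sites in RefSeq (GRCm38.p6), a CArG box was found on either strand in 10 of 25 genes of the list that had a window, or 40.0%, and in 1.43% of 14453 genes. These windows are shown because the list moved together. They are 60 bases long, written 5′ to 3′ on the strand of the gene, with CArG boxes in capitals.
Acta1, chr8:123894804-123894863, minus strand: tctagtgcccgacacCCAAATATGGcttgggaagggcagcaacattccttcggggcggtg
Cnn2, chr10:79988529-79988588, plus strand: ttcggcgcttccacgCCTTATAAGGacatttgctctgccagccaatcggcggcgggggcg
Myl9, chr2:156775288-156775347, plus strand: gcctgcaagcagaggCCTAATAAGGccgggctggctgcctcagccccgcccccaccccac
Vcl, chr14:20929156-20929215, plus strand: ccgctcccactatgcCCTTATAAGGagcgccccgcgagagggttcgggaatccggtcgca
Srf, chr17:46556200-46556259, minus strand: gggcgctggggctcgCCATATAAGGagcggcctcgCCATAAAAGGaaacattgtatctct
Filip1l, chr16:57549165-57549224, plus strand: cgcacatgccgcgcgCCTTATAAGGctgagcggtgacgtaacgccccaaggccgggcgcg
Lima1, chr15:99820152-99820211, minus strand: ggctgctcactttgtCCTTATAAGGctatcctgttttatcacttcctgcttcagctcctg
Fhl1, chrX:56779566-56779625, plus strand: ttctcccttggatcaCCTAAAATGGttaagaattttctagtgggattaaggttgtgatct
Cnn2, Vcl, Filip1l and Lima1 carried the same palindromic box, and Srf had 2 boxes. The list was made of known SRF targets, so its higher share of boxes may follow from that choice and was not tested. The same applies to the motif shares of the YAP and sterol lists below. The match of letters is a description and not evidence of binding.

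Of these 8 genes the first 6 rose and the last 2 fell. Fhl2 (1.78) and Actg1 (0.36), which also held a box and whose windows are not printed, rose as well. Cnn2, calponin 2, differed by 1.65, Myl9, a myosin light chain, by 1.41, Acta1, skeletal muscle actin, by 1.45, Vcl, vinculin of focal adhesions, by 0.61, Srf itself by 0.51 and Filip1l by 1.79. Lima1 and Fhl1, LIM proteins that bind actin structures, stood at -0.28 and -0.28, calls that were lost without either control array. In the whole list 24 of 28 genes rose, 2 fell and 2 did not pass, with a median of 0.84. The largest rises lay in genes for which no box was found. Only 25 of the 28 genes had a window, and it spans 250 bases, so these genes may carry boxes outside what was searched. Tagln, transgelin, an actin-binding protein, read 7.83 and 7.83 in the control arrays and 11.44 and 11.20 with siRNA #1 (3.49, SE 0.08, limma adjusted p = 5.69e-19). Cald1, caldesmon, read 9.37 and 9.49 against 12.75 and 12.88, with 4 of its 5 probe sets higher, and Tpm1, tropomyosin, 9.58 and 9.74 against 12.63 and 12.52. In these 3 genes the groups were far apart, and 29.9% of all genes had siRNA #1 above without overlap. Actb, the general beta-actin, rose by 0.27, and Mylk, a myosin kinase, stood at -0.38 and did not pass.

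Targets of YAP and the TEAD factors, which answer to cell spreading and tension, rose in 17 of 24 cases, with the other 7 not past the threshold and a median of 1.01. TEAD factors bind the core GGAATG, which was found on either strand in 7 of 16 upstream windows of the list (43.8%) and in 13.4% of 14453 genes. Among all windows of the 4 lists searched for motifs, 0 pairs of matches of different motifs shared a base. The 60-base windows of the 5 genes with GGAATG, or CATTCC on the other strand, that changed most are given below the same way.
Ccn1, chr3:145650044-145650103, minus strand: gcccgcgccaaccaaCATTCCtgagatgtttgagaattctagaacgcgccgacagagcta
Axl, chr7:25788922-25788981, minus strand: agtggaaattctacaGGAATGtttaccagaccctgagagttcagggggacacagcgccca
Ptpn14, chr1:189728107-189728166, plus strand: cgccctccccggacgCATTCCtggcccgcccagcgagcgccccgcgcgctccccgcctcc
Amotl2, chr9:102717724-102717783, plus strand: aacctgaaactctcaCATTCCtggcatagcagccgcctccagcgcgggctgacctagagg
Crim1, chr17:78200154-78200213, plus strand: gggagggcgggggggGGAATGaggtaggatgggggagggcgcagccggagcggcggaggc
Thbs1 (4.18) and Ccn1 (4.08) had the largest rises of the list. Axl, a receptor tyrosine kinase, read 3.98 and 4.82 in the control arrays and 7.23 and 6.95 with siRNA #1, and Ptpn14, a phosphatase that restrains YAP, 9.01 and 8.83 against 11.07 and 10.96. Ccn2, the relative of Ccn1 known as CTGF, read 10.96 and 10.91 against 13.39 and 13.46. Amotl1 and Amotl2, angiomotins that hold YAP at junctions, differed by 2.82 and 2.09, and Crim1 by 1.00. Ankrd1, with GGAATG 2 times in its window, stood at 0.05 and did not pass, nor did the kinase Lats2 (-0.05 on its brightest probe set). The 6 Lats2 probe sets ranged from -0.17 to 2.26 with a median of 1.02, and only 2 were lower.

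Cell surface and matrix genes rose together with these. Of 24 genes of matrix, integrins and proteolysis 19 rose, 1 fell and 4 did not pass, with a median of 0.74. Htra1, a secreted serine protease, read 7.14 and 7.41 against 10.67 and 10.69, and the laminin chain Lamb3 and the protease Mmp9 differed by 2.06 and 1.72. The integrin chain Itga3, which binds laminin, differed by 1.86, and fibronectin, Fn1, fell by 0.28. With probe sets averaged or without siRNA #1 replicate 2, 2 of the 24 fell. Among 20 annexins, S100 proteins and galectins 11 rose and 2 fell (1 without either control array or without siRNA #1 replicate 1). S100a6, a small calcium-binding protein, read 10.32 and 10.31 against 13.31 and 13.29, and Anxa1 8.63 and 8.59 against 11.34 and 11.36. The dimmer Anxa1 probe set stood at 0.07. Lgals1 differed by 1.41 and Lgals3 by -1.52, so that the best known galectins moved in opposite directions.

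**Figure D4:**
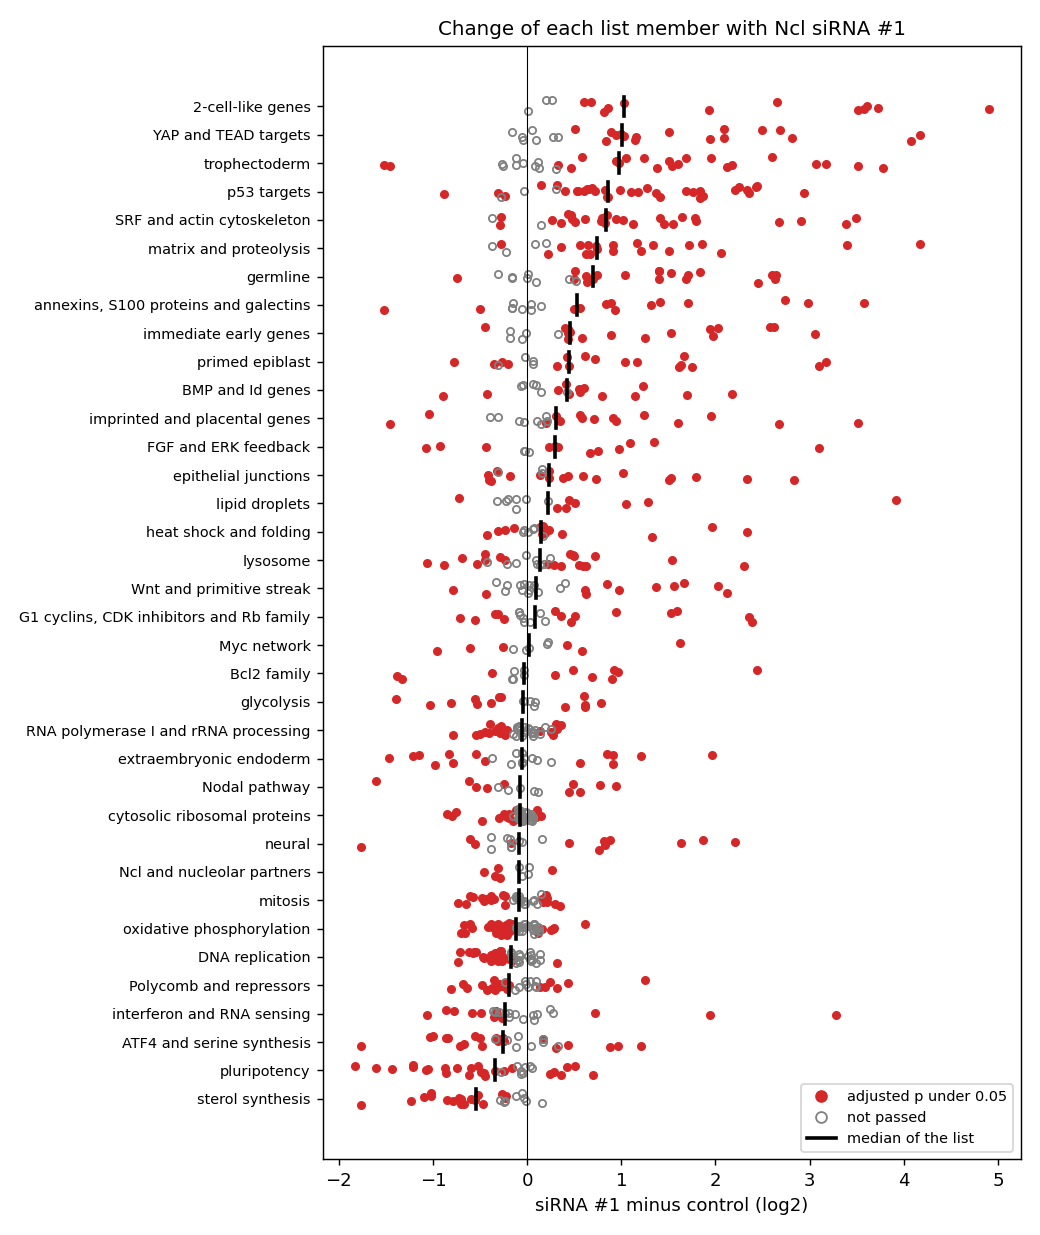
Difference between siRNA #1 and control (log2, horizontal axis) of every measured member of 36 gene lists, ordered by their medians (black bars), with filled red points for an adjusted p under 0.05. The 2-cell-like and YAP lists stand at the top, with medians of 1.03 and 1.01, and sterol synthesis at the bottom with -0.54.

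Immediate early genes, transcription factors that answer to growth signals and stress, rose in 15 of 21 cases, with a median of 0.45, and Egr3 fell, a call lost without control replicate 2 or siRNA #1 replicate 1. Atf3 differed by 3.06, Fos read 7.71 and 7.64 in the control arrays against 9.65 and 9.57, and Jun 7.52 and 7.60 against 9.48 and 9.58. In all 3, which can join into AP-1 dimers, the groups were apart, with siRNA #1 above as in 29.9% of all genes. Fosl1, Fosl2 and Klf6 differed by 2.62, 2.58 and 2.02, and Egr1 rose by 0.40. The dimmer Fosl2 probe set stood at -0.08. Myc stood at -0.02 and did not pass. Among 15 feedback genes of FGF and ERK signalling 9 rose and 3 fell. The ERK phosphatases Dusp5, Dusp4 and Dusp6 differed by 1.35, 1.09 and 0.98 and Phlda1 by 3.10, whereas the inhibitors Spry4 and Spry1 stood at -0.93 and -0.44.

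The signalling pathways of the early embryo moved by member rather than as wholes. In the BMP pathway 11 of 19 genes rose and 2 fell. The ligand gene Bmp4 read 10.69 and 10.66 against 9.90 and 9.65. The target genes Id3, Id2, Smad6 and Msx2 differed by 1.23, 1.15, 1.70 and 2.18, though the dimmer Msx2 probe set stood at -0.03. The second gene that fell was the receptor Acvr2b at -0.43, and the count was 1 without control replicate 1 or siRNA #1 replicate 2. In the Nodal pathway 5 of 15 rose and 5 fell. The ligand genes Nodal and Gdf3 differed by 0.44 and 0.56, the convertase Furin by 0.94 and the signal carrier Smad2 by 0.78, and the inhibitors Lefty2 and Lefty1 by -1.60 and -0.62. Of 24 Wnt and primitive streak genes 9 rose, 2 fell (1 without control replicate 1 or siRNA #1 replicate 1) and 13 did not pass. Wnt5a and Wnt3 differed by 2.03 and 1.37, Sp5, a target of Wnt signals, by 1.56, and Axin2, another target, by 0.03.

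Lists of other lineages went both ways. Of 24 extraembryonic endoderm genes 6 rose and 8 fell (5 with probe sets averaged), with a median of -0.06. Sparc, a matrix protein of parietal endoderm, read 10.09 and 10.23 against 12.14 and 12.10 and the laminin chain Lamb1 differed by 1.21, while Apoe, Thbd and Pdgfra stood at -1.15, -1.47 and -0.98. Gata4 and Gata6, the master factors of that lineage, stood at -0.38 and -0.05 and did not pass. Of 21 neural genes 8 rose and 4 fell, with 2 fallen without control replicate 2 and 7 with quantile normalization. Neurod1, a neuronal transcription factor, read 9.63 and 9.72 against 11.50 and 11.59, Nefm, a neurofilament, 4.67 and 4.37 against 6.93 and 6.54, and Sox1, which marks neural progenitors, did not pass (-0.22).

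Genes of the nucleolus and of ribosome production, the process nucleolin serves, changed little in size. Calls are more common among bright genes: of 9097 genes above the median signal, tested alone, 2416 fell and 2993 rose. Control means above the arrays' median signal were held by 39 of 39 RNA polymerase I and processing genes and 44 of 45 ribosomal protein genes. The same held for 43 of 43 replication, 35 of 35 mitosis and 55 of 55 oxidative phosphorylation genes. Every measured member of the pluripotency, sterol, Bcl2, G1, glycolysis, heat shock and lysosome lists was as bright. Among Polycomb and repressor genes 31 of 32 were. Of 9 abundant nucleolar proteins 4 fell, Ncl included, 1 rose and 4 did not pass. Nolc1, Ubtf, the factor that opens ribosomal DNA, and Nop56 fell by 0.34, 0.31 and 0.29, and Nop58, the partner of Nop56 in box C/D particles, rose by 0.26. Npm1, nucleophosmin, read 14.63 and 14.58 against 14.60 and 14.64 with the groups overlapping. Among 39 genes of RNA polymerase I and ribosomal RNA processing 12 fell, 6 rose (3 with variances that ignore the trend) and 21 did not pass, with a median of -0.05, equal to that over all genes. Ftsj3, a methyltransferase of pre-ribosomal RNA, read 10.79 and 10.79 against 10.08 and 9.93, and Polr1c, a subunit of RNA polymerases I and III, 12.06 and 12.04 against 11.55 and 11.46. Polr1a, the largest subunit, differed by 0.30 in the other direction on its brightest probe set. Its 5 probe sets ranged from -0.20 to 0.30 with a median of 0.02.

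Ribosomal protein genes could be read for 45 of 80. Of these 14 fell, 3 rose and 28 did not pass, with a median of -0.08. Among the 9097 genes above the median signal 2416 fell and 2993 rose. The count that fell was 9 without control replicate 1, 8 without control replicate 2 and 4 with variances that ignore the trend, and the count that rose was 0 to 2 without a single array. Rpl22l1, a paralogue of Rpl22, read 13.22 and 13.27 against 12.53 and 12.46, Rpl37 11.99 and 12.15 against 10.98 and 11.46, and Rpl27a differed by -0.79. Rpl11, which binds Mdm2 when it is not in ribosomes, read 14.38 and 14.38 against 14.23 and 14.29 (-0.12, SE 0.04). Ribosomal protein genes have many processed copies in the genome that may share probe sequence, so single values are uncertain.

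Genes of DNA replication were lower by small amounts. Of 43 genes 22 fell, 1 rose (Rfc5) and 20 did not pass, with a median of -0.17. Over all genes 17.3% fell and 20.2% rose, and of the 9097 above the median signal 2416 fell and 2993 rose. Pola1, the catalytic subunit of DNA polymerase alpha, read 10.51 and 10.61 in the control arrays and 9.88 and 9.76 with siRNA #1 (-0.74, a call lost with its probe sets averaged). Rfc3, of the clamp loader, Tk1, thymidine kinase, and Cdc6, a licensing factor, differed by -0.71, -0.62 and -0.56. Of the helicase genes Mcm4 fell by 0.27, while Mcm2, Mcm3, Mcm6 and Mcm7, between 0.03 and 0.13, and Mcm5, at -0.10, did not pass. The count that rose was 2 without siRNA #1 replicate 2. The motif TTTGGCGC of E2F factors was found in 3 of 36 upstream windows of the list (8.33%), those of Mcm5, Mcm6 and Pola1, and in 0.775% of 14453 genes. Of 35 mitosis genes 13 fell, 7 rose (4 without control replicate 2 or with probe sets averaged, 2 with variances that ignore the trend) and 15 did not pass. Cdk1 fell by 0.57, Birc5, survivin, by 0.60 and Cenph, a kinetochore protein, by 0.73, while Prc1, of the spindle midzone, rose by 0.30.

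Among the 36 lists that do not mark other cell types, sterol and fatty acid synthesis had the lowest median, -0.54, with 18 of 26 genes that fell and 8 that did not pass. The factors of the SREBP family, which switch these genes on when sterols are scarce, bind elements with the core CACNNCAC. It was found on either strand in 5 of 20 windows (25%) and in 15.8% of all 14453 genes, and the windows of the 3 genes below hold it in capitals, 3 times in a row in Insig1.
Dhcr7, chr7:143823255-143823314, plus strand: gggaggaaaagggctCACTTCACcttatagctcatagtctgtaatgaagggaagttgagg
Insig1, chr5:28071352-28071411, plus strand: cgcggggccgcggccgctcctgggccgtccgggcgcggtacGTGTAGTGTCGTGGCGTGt
Hmgcs1, chr13:119690200-119690259, plus strand: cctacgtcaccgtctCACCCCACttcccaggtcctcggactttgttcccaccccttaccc
Dhcr7, the last enzyme of cholesterol synthesis, read 9.72 and 9.71 against 8.52 and 8.45, and Insig1, which holds SREBP in the endoplasmic reticulum, 9.75 and 9.88 against 8.72 and 8.72. Hmgcs1, at the head of the pathway, read 12.38 and 12.46 against 12.03 and 11.87 (-0.47, SE 0.06), and Scd1, the stearoyl-CoA desaturase, fell by 1.77. The siRNA #1 arrays lay below the control arrays for all 4, as for 34.2% of all genes. Sqle, squalene epoxidase, stood at 0.16 and Hsd17b7, which also holds CACNNCAC, at -0.03, and neither passed. Without siRNA #1 replicate 2, 1 gene of the list rose.

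Fat storage and energy metabolism differed between their members. Of 15 lipid droplet genes 7 rose (4 without control replicate 1 or with variances that ignore the trend), 1 fell (3 without siRNA #1 replicate 1 and 4 with quantile normalization) and 7 did not pass. Plin2 stood alone in size, followed by Cidea (1.29, lost without control replicate 2) and Abhd5, a co-activator of lipolysis (1.05), while Plin3, Plin4 and Plin5 did not pass. Mgll, at 0.51, turned to -0.29 without _x_at and _s_at probe sets. Of 18 glycolysis genes 8 fell and 5 rose. The glucose transporters Slc2a1 and Slc2a3 differed by 0.62 and 0.61, and the enzymes Aldoc, Pfkp and Tpi1 by -1.39, -1.04 and -0.80. Of 55 genes of oxidative phosphorylation 27 fell (16 with variances that ignore the trend), 6 rose (10 without siRNA #1 replicate 2 or with quantile normalization, 2 with probe sets averaged or with variances that ignore the trend) and 22 did not pass, with a median of -0.11, Uqcrh standing at -0.70 and Uqcrc1, of the same complex III, at 0.62.

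Stress programmes were mixed. Of 28 genes of the ATF4 response and serine synthesis 14 fell, 6 rose and 8 did not pass, and 9 fell without _x_at and _s_at probe sets. Phgdh, the entry enzyme of serine synthesis, read 11.21 and 11.36 against 10.29 and 10.22, and Psph and Shmt2 differed by -0.71 and -0.84, while Ddit3 (CHOP) rose by 0.97. The dimmer Ddit3 probe set stood at -0.11. Atf4 stood at 0.05 and did not pass. Of 25 interferon and RNA-sensing genes 9 fell and 3 rose, namely Gbp2, a guanylate-binding protein, at 3.28, Cxcl10 at 1.95 and Irf1 at 0.72, while Irf9 stood at -1.06. Of 20 heat shock and folding genes 10 rose (5 without control replicate 2, 4 with variances that ignore the trend) and 4 fell (2 under each of these settings and without control replicate 1), Hspb8 and Hspa1a differing by 2.33 and 1.96 and the endoplasmic reticulum chaperone Hspa5 by 0.19. Hspa4 fell by 0.42 on its brightest probe set and stood at 0.04 when its probe sets were averaged. The 3 Hspa5 probe sets ranged from -0.40 to 0.19 with a median of -0.13.

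Lysosomal genes had 12 of 29 that rose and 8 that fell. All 29 had control means above the arrays' median signal, and of 9097 genes above the median signal 2993 rose and 2416 fell. These counts are therefore not read as a shift of the list. Man2b1, an alpha-mannosidase, read 9.56 and 9.69 against 11.94 and 11.92 and Ctsd, cathepsin D, 10.42 and 10.40 against 12.01 and 11.89, whereas the galactosidase Glb1 differed by -1.06 and the hexosaminidase subunit Hexa by -0.88. Of 32 Polycomb, DNA methylation and other repressor genes 16 fell (9 with variances that ignore the trend) and 6 rose (3 with the same setting), with a median of -0.20. Zfp57, which protects imprints, Tet2 and Setdb1, a histone H3 lysine methyltransferase, differed by -0.80, -0.68 and -0.34, and Bmi1, a Polycomb subunit, by 1.25. The highest of the 3 Setdb1 probe sets stood at 0.39. Trim28, the partner of nucleolin in repression of the 2-cell programme, stood at -0.01 and did not pass. In the Myc network Mxd4 differed by 1.62, Mycn by 0.42 and Mga by -0.95.

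The direct contrast of the duplexes, siRNA #1 minus siRNA #2, does not use the control arrays for its difference. In it 8.48% of genes differed (6.18% higher with siRNA #1 and 2.3% lower), 1543 in number, of which 16 and 40 differed at least 2-fold. The count rests heavily on single arrays and on the variance fit: it was 732 without siRNA #1 replicate 1, 4301 without siRNA #1 replicate 2, 790 with the probe sets of a gene averaged and 142 with variances that ignore the trend. Airway secretory genes had 0 of 13 members called in this contrast by limma (1 at an unadjusted p under 0.05), and Scgb1a1, at -0.41, had an adjusted p of 0.11. Other lung lists had a few members called: Sftpd, Napsa and Etv5 of the alveolar type 2 list were higher with siRNA #1 by 0.51, 0.39 and 0.37 (3 of 13), Dcn and Fbln1 of lung stroma were higher (2 of 16) and Pdpn of alveolar type 1 cells was lower (1 of 10). Endothelial markers had 1 higher and 1 lower. Ncl itself differed by 0.01 (SE 0.04, adjusted p = 0.94).

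Genes of the 2-cell-like list were lower with siRNA #1 than with siRNA #2 in 10 of 15 cases, with a median of -1.67. Zfp352 read 7.56 and 7.43 with siRNA #1 and 9.62 and 9.81 with siRNA #2 (-2.22, SE 0.13, limma adjusted p = 2.42e-10). Tcstv1 read 5.57 and 5.65 against 7.77 and 7.96, and Usp17la 9.86 and 9.92 against 11.83 and 11.87. For these 3 genes siRNA #1 lay between the control arrays and siRNA #2. Tdpoz1, which did not pass against the control, read 4.48 and 4.66 against 6.63 and 6.52. The count was 9 to 11 under the other settings and without each array, except that among genes above the median signal it was 5 of 7.

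In the opposite direction, pluripotency genes were higher with siRNA #1 in 21 of 33 cases and primed epiblast genes in 12 of 21. These pluripotency differences were small (median 0.22), and the count was 12 without siRNA #1 replicate 1 or with probe sets averaged and 2 with variances that ignore the trend. For primed epiblast genes it was 8 without siRNA #1 replicate 1 and 6 with variances that ignore the trend. Otx2 read 10.73 and 10.74 with siRNA #1 against 9.34 and 9.38 with siRNA #2 (1.37, SE 0.07, limma adjusted p = 6.39e-11), the latter below both control readings. Lefty2 and Lefty1 were higher with siRNA #1 by 1.06 and 0.94, and Fgf5 by 1.01. Aspa, aspartoacylase, read 6.92 and 6.69 against 5.17 and 5.31, close to the control readings of 5.01 and 5.26. Hint3 read 8.47 and 8.27 with siRNA #1 and 7.36 and 7.16 with siRNA #2, while its control readings were 8.33 and 8.31.

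Trophectoderm genes were lower with siRNA #1 than with siRNA #2 in 12 of 31 cases (5 with variances that ignore the trend), genes of epithelial junctions in 7 of 21 (1, and 4 with probe sets averaged or without siRNA #1 replicate 1), matrix genes in 10 of 24 (2) and annexin, S100 and galectin genes in 8 of 20 (3, and 5 with probe sets averaged). Krt18 read 11.18 and 11.06 with siRNA #1 against 12.20 and 12.20, Krt8 11.83 and 11.76 against 12.70 and 12.72, and Anxa2 9.86 and 9.74 against 10.74 and 10.88. Lgals3 read 10.83 and 10.61 with siRNA #1 and 12.08 and 12.12 with siRNA #2, beside 12.20 and 12.29 in the control arrays. Of 37 p53 targets 6 were higher and 4 lower with siRNA #1 (0 and 0 with variances that ignore the trend, 10 higher without siRNA #1 replicate 2), with a median of 0.09, and Cdkn1a differed by -0.04 and Mdm2 by -0.09 without passing. Of 55 genes of oxidative phosphorylation 14 were higher, a count that was 1 without siRNA #1 replicate 1 and 32 without siRNA #1 replicate 2.

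**Figure D5:**
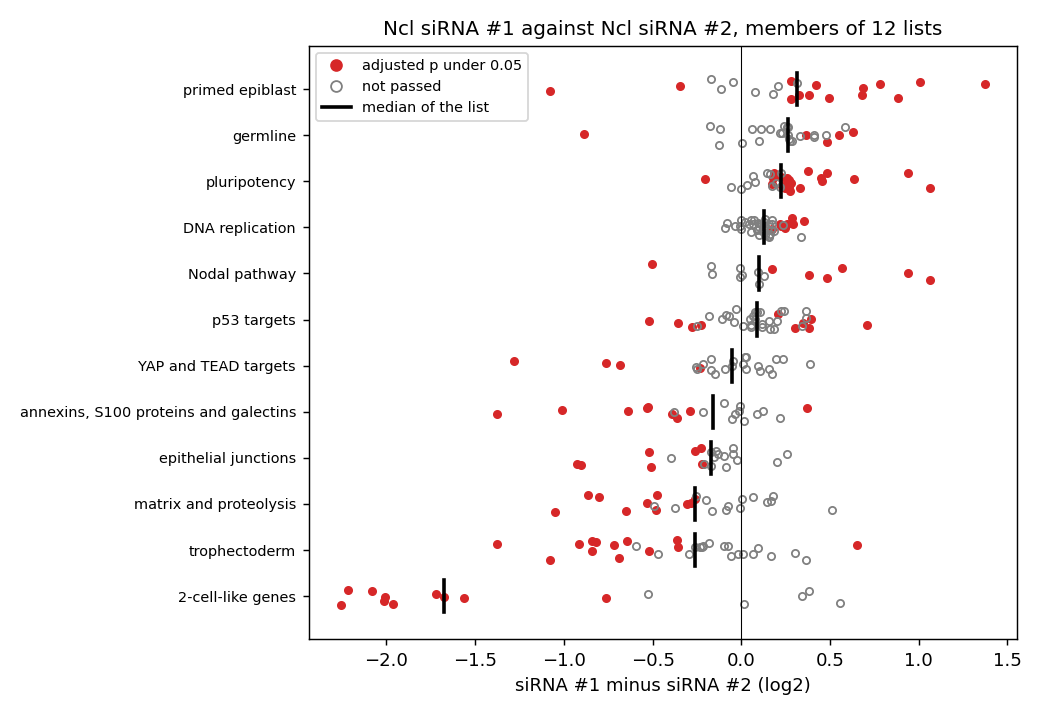
Difference between siRNA #1 and siRNA #2 (log2, horizontal axis) of every measured member of 12 gene lists, ordered by their medians (black bars), with filled red points for an adjusted p under 0.05. The 2-cell-like genes lie far to the left, with a median of -1.67, and primed epiblast genes to the right.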

How the data were processed

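Total RNA of E14Tg2a cells was measured on Affymetrix arrays at 96 h, extracted with a Qiagen RNeasy kit and labelled with biotin by an Affymetrix IVT kit, per the labels' protocols. The deposited values are log2 probe set signals that the authors had already normalized between arrays, as their near-equal medians (5.73 to 5.79) show. How background was corrected, probes were summarised and arrays were normalized is not stated. The number of arrays, 2 per group, limits the precision.

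From these values, the brightest probe set of each of 18194 genes was fitted in limma 3.58.1 under R 4.3.3 (lmFit, eBayes with trend, 1 mean per group, all 6 arrays, 3 residual and 17.5 prior degrees of freedom), with Benjamini-Hochberg over all genes and a threshold of 0.05. Gene symbols came from the platform annotation, and 932 probe sets with more than 1 symbol and 9211 without any were set aside. On simulated data for siRNA #1 minus control the procedure found 24 of 67 genes moved by 0.5, 38 of 59 moved by 1 and 72 of 74 moved by 2 (log2). There were 7 false calls among the genes left unmoved, of 18194 in all. Noise was drawn independently for each gene and array, so effects shared within an array were not simulated. Far fewer genes were moved than the 6811 called in the data, so these rates may not carry over. Gene lists are described by counts and medians, without a test. Each count stands beside the shares over all genes, of which 20.2% rose and 17.3% fell, and these shares are larger among bright genes. The members and the lists were chosen with earlier results of these data known. Genes were named by rule: Ncl, the 15 highest, the 12 lowest, the 15 lowest with a mean of at least 8 that are in no list of other cell types, the 8 largest differences between the siRNAs in each direction and up to 6 members per list. Core members that did not pass were added, and genes with Gm, Rik or sequence-record names were passed over. Pou5f1, Nanog and other members with smaller changes than the rule takes were named as known core genes of their lists or after their values were seen. Motifs were searched on both strands of RefSeq upstream windows (GRCm38.p6), and sequences are RefSeq's.

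Alternatives were quantile normalization, centring on medians, the mean of all probe sets, no _x_at or _s_at probe sets, no genes below the median signal, variances without trend or robust, only the 4 arrays compared, all probe sets, the replicate number as a block and leaving out each array. Leaving out marker genes of other cell types was added after seeing the data. Deviations of arrays with the same replicate number correlated by -0.02, 0.01 and -0.00 between groups, so the numbers do not pair the samples.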

Additional observations from a re-analysis of the deposited data

Results flagged for a closer look

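Of the named genes, 27 differed by at least 1 (log2) between the siRNAs with an adjusted p under 0.05 in limma's direct contrast (n = 2 per group), 12 higher with siRNA #1 and 15 lower. The higher ones were Aspa (1.56), Otx2 (1.37), Cd59a (1.24), Siglecf (1.20, not called with variances that ignore the trend), Syce3 (1.16), Pla2g4a (1.15), Uba1y (1.11), Hint3 (1.11), Lefty2 (1.06), Stc2 (1.05), Wnt5a (1.04) and Fgf5 (1.01). The lower ones were Mgll (-1.0), Anxa2 (-1.01), Htra1 (-1.05), Krt18 (-1.08), Malat1 (-1.09), Hspa1a (-1.13), Lgals3 (-1.38), Sp110 (-1.57), Pramel18 (-1.67), Spz1 (-1.90), Usp17la (-1.96), Tdpoz1 (-2.01), Tcstv3 (-2.02), Zfp352 (-2.22) and Tcstv1 (-2.26). Most were named for the size of this difference, so their number describes the choice.

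Signals outside the gene comparison also separated siRNA #1 from control. Probe sets that Hba-a1 and Hba-a2 share differed by -5.37, -4.76 and -3.23, and one shared by 4 beta-globin genes by -2.62. The poly-A control RNAs differed by 1.04, the hybridisation controls by -0.87 and the 18S ribosomal RNA probe sets by 0.98.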

How the results depend on the processing

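The number of genes called for siRNA #1 minus control was 6811 of 18194. It was 5546 to 7154 under the settings that kept nearly all genes and every array of the groups compared. Among genes above the median signal, tested alone, 5409 of 9097 were called, a larger share. With 1 array left out, a group held a single array. The median difference over all genes was then -0.04 to -0.03, beside -0.05 with all arrays. With all 34958 probe sets tested, 11207 were called, 6141 higher and 5066 lower. The replicate number as a block gave 6872. The 1543 genes of siRNA #1 minus siRNA #2 became 790 with the probe sets of a gene averaged, 142 with variances that ignore the trend and 732 to 4301 when 1 array was left out (1611 with the replicate block); the cause was not tested. Ncl was called under every setting, with differences from -0.98 to -0.39, and from -0.47 to -0.44 when 1 array was left out.

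Of 311 results for named genes, between 1 and 15 lost their call per setting that lost any. Without _x_at and _s_at probe sets the sign turned for Bmf (0.015), Lyz1 (0.026), Mbp (-0.17), Mgll (-0.29) and Plagl1 (-0.054), and with probe sets averaged for Hspa4 (0.040) and Mbp (-0.055). These genes have probe sets that disagree. Other named genes also have dimmer probe sets with smaller or opposite changes, so a value read from the brightest need not hold for all. Small changes near the top of the signal range, and any change of genes below the lower quartile of an array, are measured with least certainty, and 2 arrays per group limit all comparisons.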
